A study of Homo sapiens with 4 samples.

Results

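The cytosolic ribosomal proteins are the protein subunits of the ribosome that translates nuclear messenger RNA. Genes were taken by symbol, as RPL or RPS followed by a number with an optional A, X, Y or L and a further digit, plus RPLP0, RPLP1, RPLP2 and RPSA, which leaves out kinases such as RPS6KA1. The rule found 39 genes, read by 48 probes, among 17778 named genes on the array, and no measured value entered it. RefSeq lists 86 human protein-coding symbols that fit it, and the other 47, among them RPS6, RPL3, RPL11, RPLP1 and RPLP2, were not analysed here.

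The arrays profiled total RNA from HepG2, an established human hepatocellular carcinoma line, to ask how the plant alkaloid berberine bears on the cells' viability. There were 2 control samples without berberine and 2 samples given 26.95 µM berberine for 24 hours, all grown in DMEM with serum. The description field of the same samples instead names MDI-induced differentiation and 48 hours, and for the treated ones a dose of 13.47 µM. That conflict was not resolved, and title, source and treatment fields were followed. The labels do not say that replicates are separate cultures, and every p-value therefore reflects only how these arrays varied, possibly for technical reasons.

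Every one of the 26423 probe identifiers carries the prefix of a mouse probe set, so a value under a human gene's name shows what a probe designed for its mouse counterpart bound. Background was judged, by a choice made with the data in view, from the 528 olfactory receptor genes on the array, a family expressed mainly in the nose. They had a median of 6.05 and a 95th percentile of 9.24, as log2(intensity + 1) after quantile normalization, the scale of every level below. Sample medians were 62 to 90 in deposited intensity, and control 2 was the lowest. Of 16 hepatocyte markers measured, 2 had means above 9.24, and of 12 adipocyte, 7 fibroblast, 6 macrophage, 5 lymphocyte and 5 endothelial markers, 1, 0, 0, 0 and 0 did. The 2 hepatocyte markers above it were RBP4 (retinol-binding protein 4) and CEBPA, with levels of 13.34 and 10.98. They made up 12.5% of the measured list, where 9.15% of all genes lay above 9.24. These counts do not settle which cells the arrays held. ALB (albumin) and AFP (alpha-fetoprotein), which HepG2 cells are known to secrete, had levels of 8.35 and 4.75, in the background range. In the trend test described below, 3 hepatocyte markers fell (CEBPA, FGG and RBP4) and 0 rose, where 0.501% of all genes fell and 0.962% rose. FGG, with a level of 5.88, lay in the background range. Any part of cell makeup in the ribosomal values was not tested. The number of arrays limits the precision.

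Ribosomal proteins fold onto ribosomal RNA in the nucleolus to build a small subunit, which decodes the message, and a large subunit, which joins amino acids and holds the exit tunnel of the new chain. Their messages are among the most abundant in growing cells. Most start with a cytosine followed by an unbroken stretch of pyrimidines, the 5′ terminal oligopyrimidine (TOP) motif, through which the kinase mTORC1 and the RNA-binding protein LARP1 control how much of each message is translated. A level of messenger RNA does not show how much of it is translated.

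The start sites of the human genes were read to see how far the measured members share this motif. RefSeq promoter windows of GRCh38.p14, from 250 bases before to 50 bases after an annotated start, matched 30 of the 39 genes. A cytosine at an annotated start that opened a run of at least 5 pyrimidines (C or T), read on the gene's strand only, was present in 20 of these 30 genes. By window it was present in 20 of 36 (55.6%), against 4.07% of all 35116 windows. The runs were 6 to 14 bases long. Those below were chosen to show the longest run, the stalk protein, a bright member and the member with the largest difference, then a parent gene and 2 paralogs. Each runs 40 bases before and 20 bases from the annotated start, which is its 41st base. Capitals mark the pyrimidine run.
RPS24: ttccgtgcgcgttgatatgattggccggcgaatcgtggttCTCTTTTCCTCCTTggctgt
RPLP0: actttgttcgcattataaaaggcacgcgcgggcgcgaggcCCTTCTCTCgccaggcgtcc
RPL38: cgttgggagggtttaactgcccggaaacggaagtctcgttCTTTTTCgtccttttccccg
RPL4: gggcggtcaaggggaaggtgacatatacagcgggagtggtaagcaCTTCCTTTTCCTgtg
RPS27: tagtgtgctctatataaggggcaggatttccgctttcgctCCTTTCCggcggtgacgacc
RPS27L: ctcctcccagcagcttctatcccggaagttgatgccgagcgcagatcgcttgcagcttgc
RPL7L1: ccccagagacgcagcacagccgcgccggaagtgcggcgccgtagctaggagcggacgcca

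The sequences lie at chr10:78033823-78033882 (plus strand) for RPS24, chr12:120201092-120201151 (minus) for RPLP0, chr17:74203638-74203697 (plus) for RPL38, chr15:66504836-66504895 (minus) for RPL4, chr1:153990722-153990781 (plus) for RPS27, chr15:63157458-63157517 (minus) for RPS27L and chr6:42879576-42879635 (plus) for RPL7L1. RPS27, a zinc-binding protein of the small subunit, opens with a run of 7 pyrimidines, and its paralog RPS27L has no such run within 20 bases of its start. RPL7L1, a paralog of RPL7, has none either. In RPL4 a run of 12 begins 5 bases downstream of the annotated start, so it was not counted among the 20. On the array, the genes with the run had a median level of 6.68 and a median log2 difference between groups of -0.01, and the 10 genes with a window and no run had 6.39 and 0.05.

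Most members read in the background range. The median member had a level of 6.71, where the median gene had 6.54, and members ran from 3.64 (RPS29) to 10.46 (RPS15A). Only RPS15A, RPS2 and RPL4 exceeded the olfactory receptor 95th percentile, 3 of 39 (7.69%), where 9.15% of all genes did. RPL4 did so only through its berberine samples, since both of its controls, at 8.95 and 8.91, lay below 9.24. By level the members spread from percentile 0.478 to percentile 96.6 of all genes, and 13 lay below the olfactory receptor median. Levels of different probes were not set against each other as amounts of RNA, since each probe has its own affinity.

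**Figure D1:**
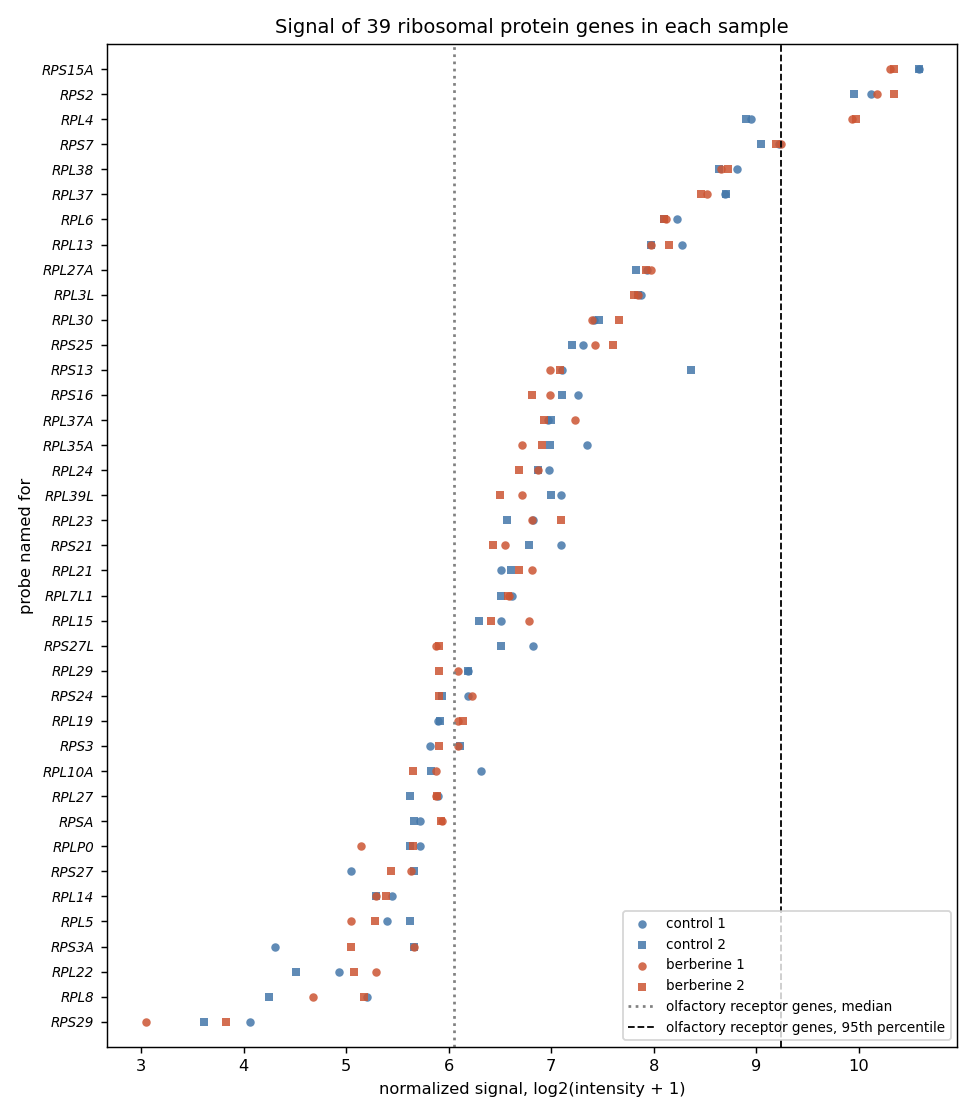
Normalized signal, log2(intensity + 1), of the probe that stands for each of the 39 genes (rows, brightest at the top) in the 2 control and 2 berberine samples. The dotted line is the olfactory receptor median, 6.05, and the dashed line their 95th percentile, 9.24; the means of 3 genes lie beyond it, and in 22 rows the groups overlap.

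Berberine and control samples were compared member by member to ask whether ribosomal protein messages shifted as a group. The differences were not mainly in 1 direction. Of the 39 members, 20 had a positive and 19 a negative log2 difference (berberine minus control), with a median of 0.00 against -0.01 for all genes, and the sample medians over members were 6.82 and 6.61 in the controls and 6.72 and 6.58 with berberine. The member median was 0.02 without normalization (values as deposited) and -0.09 after median centring, where that of all genes was 0.08 and -0.03. In the main limma test, 0 members passed an adjusted p of 0.05, where 0.0506% of all genes did. At an unadjusted p under 0.05 there were 4 members, 1 higher (all genes 6.68%) and 3 lower (all genes 6.36%), and the share of all genes in either direction was 13.0%. A p that misses the threshold does not show that a level was unchanged. Of the 39 differences, 36 were within 0.5 on the log2 scale, as were 15506 of all 17778 genes and 470 of the 528 olfactory receptor genes, so this is no result about the members. The median SE was 0.14. In RNA of a whole culture, fewer cells of a kind and less RNA per cell cannot be told apart.

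The groups did not overlap for 17 members (43.6%), against 45.0% of all genes. Berberine lay above both controls for 7 (all genes 21.7%) and below both for 10 (all genes 23.3%), so these shares were near the background. Of the 21 large subunit members counted without the stalk protein P0, 11 were positive and 10 negative, with a median of 0.07. The small subunit's 13 split into 8 and 5, with a median of 0.03. The remaining members are P0, which is also part of the large subunit and had a negative difference, and 4 paralogs.

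**Figure D2:**
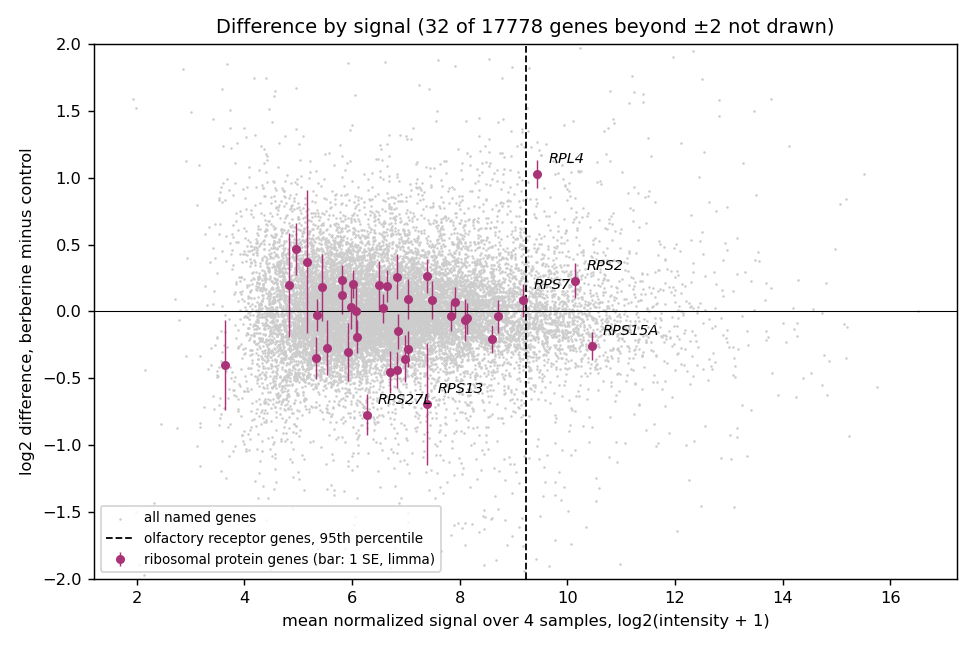
Log2 difference (berberine minus control) against mean normalized signal for all named genes (grey) and for the ribosomal protein genes (purple, bars 1 SE from limma); 32 of 17778 genes beyond ±2 are not drawn. RPL4, at 1.03, stands above the other members, most of which lie within 0.5 of 0.

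RPL4 had the largest difference. Its protein, of the large subunit, lines the exit tunnel for the growing chain. The deposited intensity of its probe was 564 in control 1, 474 in control 2, 821 in berberine 1 and 997 in berberine 2. After normalization the levels were 8.93 ± 0.03 in controls and 9.96 ± 0.02 with berberine (SD, n = 2 in each group). Both berberine samples lay well above both controls on either scale. The log2 difference was 1.03 with an SE of 0.11, or 2.04-fold (limma adjusted p = 0.107), and RPL4 was the 1 member that differed by more than 1 on this scale, as 2.38% of all genes did.

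RPL4 missed the main test and passed others. When limma's variance was allowed to follow the signal, called the trend test here, it was the 1 member past the threshold, upward (adjusted p = 0.0137). In that test 1.46% of all genes passed, 0.962% upward and 0.501% downward. It also passed with a pseudocount of 50 (adjusted p = 0.017; 1.41% of genes passed) and without the dimmest 30% of genes (0.0399; 1.11%), each time as the 1 member called. A fit of only the genes above the olfactory 95th percentile, in which 26.7% passed, gave RPL4 0.00276, but RPL4 entered that fit through its berberine values, so this p lends it no support. In the trend test the call was lost with values as deposited (0.81 on the log2 scale, trend adjusted p = 0.12) and after median centring (0.69, trend adjusted p = 0.111). Leaving out 1 sample left a group with 1 sample, so a call missed there is no result about RPL4. The difference was then 1.05 without control 1, 1.00 without control 2, 1.04 without berberine 1 and 1.01 without berberine 2. Over all 22 alternatives the RPL4 difference was between 0.69 and 1.05, and its limma adjusted p between 0.0137 and 1.00, apart from the 0.00276 in the fit of bright genes. RPL4 has 1 probe, so no other probe bears on it. Its annotated neighbours on the human genome, SNAPC5 and ZWILCH, named after their values were seen, were at -0.12 ± 0.20 and -0.10 ± 0.14 (log2 difference ± SE).

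RPS15A and RPS2 are the other members above the background reference, both of the small subunit. RPS15A, the brightest member, read 1795 and 1544 in controls and 1060 and 1279 with berberine. Normalized, it went from 10.59 ± 0.00 to 10.33 ± 0.03 (SD, n = 2 in each group), a log2 difference of -0.26 with an SE of 0.11 (limma adjusted p = 0.41, trend test 0.212). Both berberine samples were below both controls. Its 4 normalized values all lay above 9.24, and it passed in 1 setting, the fit of bright genes alone (adjusted p = 0.0466, where 26.7% of genes passed). Its size depended on scaling, at -0.52 without normalization and -0.63 after median centring.

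RPS2, which sits near the entry of the message channel, read 1289 and 1003 in controls and 964 and 1279 with berberine. The deposited values overlapped, and after normalization both berberine samples lay above both controls. The difference was 0.23 ± 0.13 (SE, limma adjusted p = 0.534), and it turned to -0.03 without normalization and -0.15 after median centring.

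The next 5 members by level were RPS7, RPL38, RPL37, RPL6 and RPL13. RPS7, of the small subunit, read 687 and 523 in controls and 516 and 587 with berberine. RPL38, a large subunit protein studied for its role in the translation of Hox messages, read 517 and 386 against 345 and 424. RPL37 read 478 and 406 against 316 and 357. Of these 3, only RPL37 had groups that did not overlap.

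RPL6 and RPL13, both of the large subunit, read 345 and 258 against 240 and 279, and 354 and 238 against 220 and 289. Normalized log2 differences were 0.08 for RPS7, -0.04 for RPL38, -0.21 for RPL37, -0.05 for RPL6 and -0.06 for RPL13, with SEs of 0.11 to 0.16 and limma adjusted p-values of 0.491 or more. RPS7 turned to -0.12 without normalization and -0.24 after median centring, and RPL37 went to -0.39 and -0.50. None of the 5 differences passed the main test or the trend test.

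**Figure D3:**
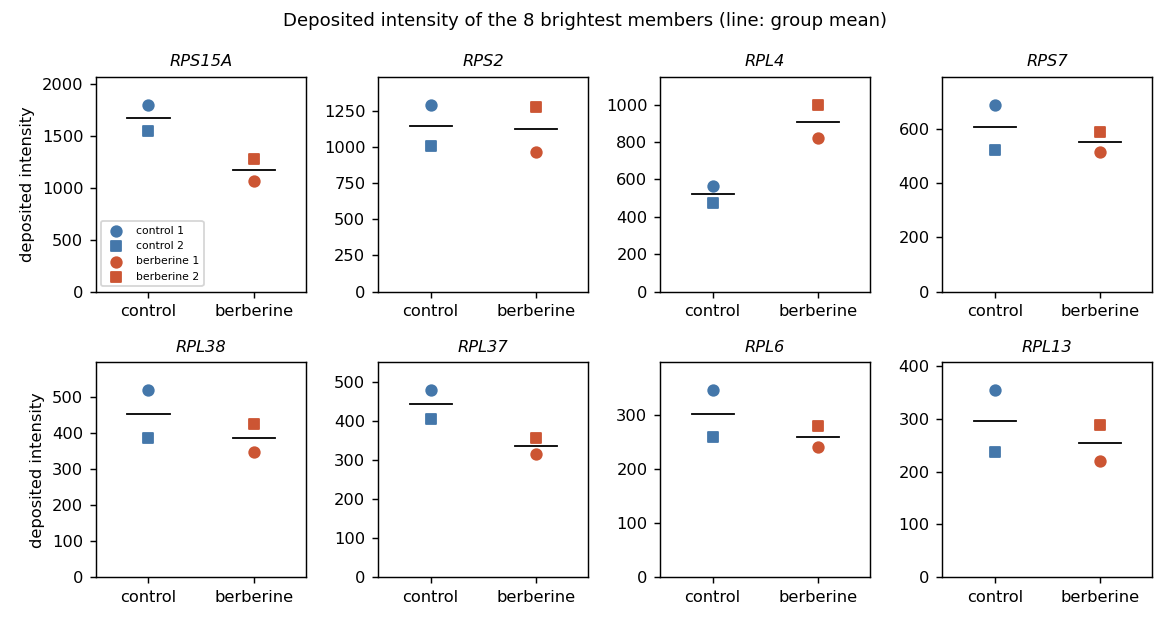
Deposited intensity (linear axes from 0) of the 8 brightest members in each sample, with lines at the group means. RPL4 is the panel where both berberine samples lie well above the controls, RPS15A and RPL37 have both below, and the other panels overlap.

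The stalk and the 5S complex were represented by dim probes. RPLP0 encodes P0, the anchor of the lateral stalk that recruits elongation factors, and it read 61 and 32 in controls and 39 and 55 with berberine. RPL5, which carries 5S ribosomal RNA into the large subunit and can bind MDM2 when free, read 50 and 32 against 38 and 42. RPSA, a small subunit protein also known as the laminin receptor precursor, read 61 and 33 against 60 and 66. Each of these deposited ranges overlapped, and after normalization RPL5 was below and RPSA above both controls. The normalized log2 differences were -0.27 with an SE of 0.21 for RPLP0, -0.35 with 0.16 for RPL5 and 0.24 with 0.11 for RPSA (limma adjusted p-values 0.619, 0.44 and 0.44). RPLP0 turned to 0.07 with values as deposited, where RPL5 was at -0.0026 and RPSA at 0.48.

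Of the 4 paralogs, 2 were among the members with an unadjusted p under 0.05, both with lower values under berberine, where 6.36% of all genes were lower at that p. With 4 genes this count is a description of them and no result about paralogs. RPS27L, a known p53 target, read 127 and 72 in controls and 58 and 65 with berberine. Its levels were 6.67 ± 0.22 and 5.89 ± 0.02 (SD, n = 2 in each group), a log2 difference of -0.77 with an SE of 0.15 (limma adjusted p = 0.233, trend test 0.129). Both levels lay in the background range, and with a pseudocount of 50 the difference was -0.48. Its parent gene RPS27 read 41 and 33 against 49 and 46, at 0.18 with an SE of 0.25. The difference between parent and paralog was not tested.

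RPL39L, a paralog of RPL39 known from male germ cells and some tumours, read 155 and 111 in controls and 97 and 95 with berberine. The log2 difference was -0.44 (SE 0.13, limma adjusted p = 0.338). By their brightest probes, RPL3L, the paralog of RPL3 in striated muscle, was at -0.04 and RPL7L1 at 0.02, with groups that overlapped. Dimmer probes gave 0.42 and -0.14 for RPL3L and -1.01 for RPL7L1. RPS21, of the small subunit, was the fourth member with an unadjusted p under 0.05, and it is named after its value was seen. It read 155 and 92 against 88 and 93, with a log2 difference of -0.45 (SE 0.16, limma adjusted p = 0.374), and of -0.30 without control 1.

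A few other members, also named after their values were seen, had a deposited value in control 2 apart from the rest. Low readings there were not particular to the members. Over the whole array, 269 probes were below 0 in control 2, against 0 in control 1, 1 in berberine 1 and 11 in berberine 2. RPS13, of the small subunit, read 156 and 316 in controls and 116 and 142 with berberine, so control 2 stood apart, and its log2 difference of -0.69 had an SE of 0.46. RPL22, an RNA-binding protein of the large subunit, read 40 and 4 against 40 and 37. RPL8, also of the large subunit, read 43 and 3 against 29 and 38, with a log2 difference of 0.20 and groups that overlapped. RPS29, a small zinc-binding protein and the dimmest member, read 23 and -6 against 10 and 14, with 1 value below 0. RPL22 and RPS29 were at 0.47 and -0.40 (limma adjusted p-values 0.422 and 0.647). Normalized, RPL22 was at 4.93 and 4.51 against 5.29 and 5.08, so both berberine samples lay above both controls. RPS29 was then at 4.07 and 3.61 against 3.04 and 3.83, and its groups overlapped.

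Probes named for the same member were compared to see how far a name can be read. Of the 39 genes, 31 had 1 probe, 7 had 2 and RPL3L had 3. Between the brightest and the next probe the level differed by 0.35 to 7.07 on the log2 scale, and the differences between groups had the same sign for 3 genes and opposite signs for 5. No second probe exceeded the olfactory 95th percentile. The RPS15A probes were farthest apart, at levels of 10.46 and 3.39, the second with deposited values of 22 and -7 in controls and 21 and 3 with berberine.

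RPL21, a large subunit protein, had the probes closest in level and farthest apart in their differences. Its brighter probe read 106 and 81 in controls and 106 and 111 with berberine, and the other read 116 and 180 against 47 and 48. Their log2 differences were 0.19 and -1.65 with SEs of 0.12 and 0.36 (limma adjusted p-values 0.578 and 0.278 with each probe as its own row). Both berberine values of the second probe lay far below its controls, and the first did not show this. RPL30, also of the large subunit, had probes at 0.08 and -0.52, RPL37 at -0.21 and 0.35, and RPS7 at 0.08 and 0.00. RPL7L1 had probes at 0.02 and -1.01, and RPL3L at -0.04, 0.42 and -0.14. Those of RPL27A were at 0.07 and 0.07, and those of RPS15A at -0.26 and -0.40. With each probe as its own row, 0 of 48 passed without the trend and RPL4 alone passed with it.

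Genes around the ribosome were taken as lists to place the members. FAU, which encodes a ubiquitin-like protein fused to the ribosomal protein RPS30, was the 1 ribosomal gene outside the symbol rule that was measured. It read 1632 and 1336 in controls and 1107 and 1404 with berberine, with a level of 10.41, and its difference of 0.03 turned to -0.24 without normalization and -0.36 after median centring. Mitochondrial ribosomal proteins (67 measured), which serve the separate ribosome of mitochondria, had a median level of 6.77 and a median difference of -0.04. The cytosolic members had 6.71 and 0.00, and all genes had 6.54 and -0.01. Of the mitochondrial list 0 passed the main test. In the trend test 0 of them rose and 1 fell, where 0.962% of all genes rose and 0.501% fell. The 1 was MRPS7, which went from 2612 and 2343 to 1100 and 1355 (log2 difference -0.79, SE 0.11, limma trend adjusted p = 0.0204, main 0.143).

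Elongation factors and other genes with TOP messages (13 of 17 measured) had a median difference of 0.16 (all genes -0.01), and 0 passed the main test. In the trend test 2 rose and 0 fell, where 0.962% of all genes rose and 0.501% fell. NACA, which binds new chains at the tunnel exit, read 2002 and 1578 in controls and 2788 and 2827 with berberine, a log2 difference of 0.89 with an SE of 0.14 (limma trend adjusted p = 0.0366, main 0.17). EIF4B, the cofactor of the helicase eIF4A in initiation, read 5652 and 4471 against 7367 and 8723, a log2 difference of 0.82, SE 0.11 (limma trend adjusted p = 0.0203, main 0.144). Both had means above 9.24, and both were smaller with the mean of a gene's probes, at 0.34 and 0.50. With values as deposited NACA and EIF4B were at 0.66 and 0.67, and with median centring at 0.55 and 0.56, and like RPL4 neither then passed the trend test (adjusted p-values from 0.167 to 0.285). MRPS7 passed it as deposited and not with median centring (trend adjusted p = 0.0569). Without any 1 sample, 0 of 17778 genes passed, in the main test or in the trend test.

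In the list of translation initiation factors (25 measured) 0 passed either test. That list leaves out EIF4B, which was listed with the TOP messages, as were EIF3E, EIF3F, EIF3H and EIF3L. EIF3I, a subunit of the factor that holds the small subunit ready, read 2372 and 1639 in controls and 2654 and 3138 with berberine, a log2 difference of 0.76, SE 0.16 (limma adjusted p = 0.245, trend test 0.0818). Of 20 genes of ribosome assembly and the nucleolus 0 passed either test, with a median difference of -0.01. RIOK1, a kinase of late small subunit maturation, read 233 and 168 against 288 and 338, a log2 difference of 0.79, SE 0.12 (limma adjusted p = 0.166, trend test 0.0532). Of 17 genes listed for mTORC1 and the kinases of ribosomal protein S6, among them the RSK genes RPS6KA1 and RPS6KA3, 0 passed either test, and all 17 differences were within 0.5. TSC2, an inhibitor of mTORC1, had the smallest p among them, with a difference of 0.30, SE 0.15 (limma adjusted p = 0.465).

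**Figure D4:**
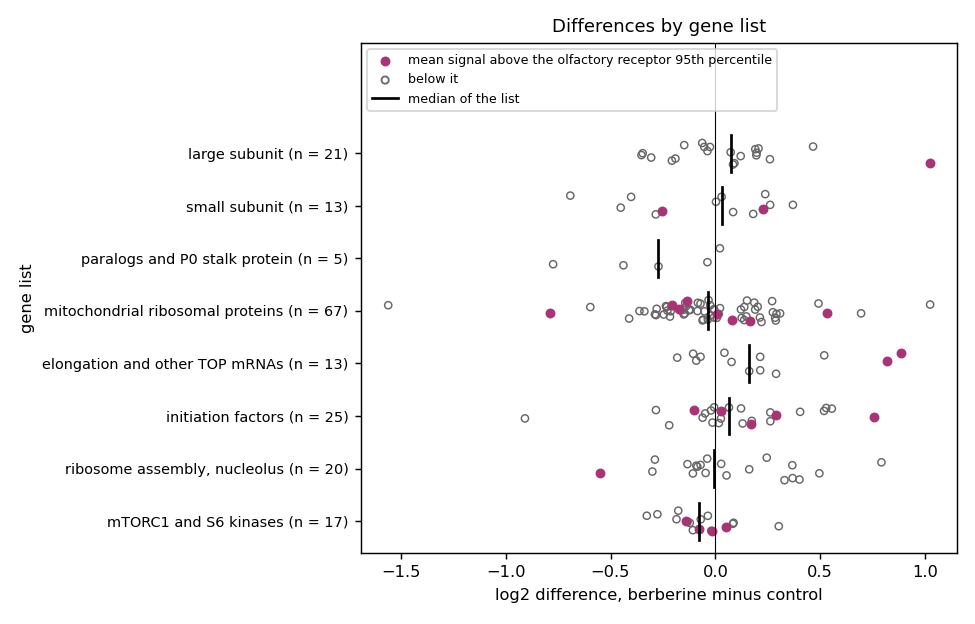
Log2 difference (berberine minus control) of each measured gene by list, with the list's median as a line; filled points have a mean signal above the olfactory receptor 95th percentile. The median of the paralogs and P0 stalk protein is the P0 value, -0.27, and the other list medians lie between -0.08 and 0.16. RPL4, NACA and EIF4B are filled points at 1.03, 0.89 and 0.82.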

How the data were processed

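Each of the 4 samples is 1 one-colour array of Cy5-labelled amplified RNA, per the labels' protocols. Values in the deposited file are whole-number intensities (linear scale). How the authors made each intensity (scanner, background correction, normalization) was not given in the sources used here. Genes came from the platform annotation, which named 20377 of 26423 probes, each with 1 symbol. The deposited medians differed, so values were quantile normalized, set to at least 0 (the floor was added because some were below 0), and transformed to log2(value + 1). The probe with the highest mean stood for a gene. All 17778 genes were tested with limma 3.58.1 (lmFit, eBayes, no trend, no block, 2 residual degrees of freedom) in R 4.3.3, 2-sided, with Benjamini-Hochberg adjustment over all genes. The code was checked on simulated arrays. Figures used matplotlib 3.10.9.

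Members and lists were chosen with earlier results of these data known. Named members are the 8 brightest, those past the main or trend threshold, the largest differences with groups apart among members above the olfactory 95th percentile, RPLP0, RPSA, RPL5, and paralogs with their parents; of each other list, up to 2 genes past either threshold or otherwise the 1 with the smallest p. Other normalizations, pseudocount, filters, variance models and probe rules, a replicate block and leaving out each sample were tried.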

Additional observations from a re-analysis of the deposited data

How the results depend on the processing

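The count of members past an adjusted p of 0.05 was 0 in the main test and 0 with values as deposited, median centring, robust eBayes, the mean of probes and each probe as its own row. It was 1 (RPL4) with a pseudocount of 50, without the dimmest 30% of genes and with the intensity trend, and 2 (RPL4 and RPS15A) among genes above the olfactory receptor 95th percentile, where 3 members were left. RPL4 was among these 3 only through its berberine samples, so its call and the median there depend on the difference itself. Among settings added after seeing the data, it was 1 with the trend and each probe as its own row or the replicate block, and 0 with the trend and values as deposited or median centring. Without 1 sample it was 0 to 0. With the replicate block alone, with median centring and without any 1 sample, 0 of all 17778 genes passed, so the 0 there is no result about the members. With the block, 5 members had an unadjusted p under 0.05, and RPL4 had a limma adjusted p of 0.328. Same-numbered samples shared little, with deviations correlated at 0.09 across genes. The median difference was 0.23 over the 3 bright members and -0.06 to 0.05 without 1 sample.

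These alternatives changed the sign of small differences. Values as deposited gave RPS2 -0.034, RPS7 -0.12, RPLP0 0.065 and FAU -0.24, and median centring gave RPS2 -0.15, RPS7 -0.24, RPL7L1 -0.0027 and FAU -0.36, with or without the trend. The mean of probes gave RPL37 0.070, RPL7L1 -0.50 and RPL3L 0.082. Leaving out 1 sample, RPS7 ranged from -0.0048 (without control 2) to 0.17, RPL38 from -0.13 to 0.053 (without control 1), RPL6 from -0.12 to 0.014 (without control 1) and RPL13 from -0.21 to 0.085 (without control 1; 0.022 without berberine 1). RPL7L1 ranged from -0.033 (without control 2) to 0.077, RPS27 from -0.13 (without control 1) to 0.49, and FAU from -0.017 (without berberine 2; -0.015 without control 2) to 0.072. None of these values passed the threshold, and the cause was not tested. Of 509 values of 24 named genes under the alternatives, 448 kept direction and side of the threshold, 24 passed where the main test did not, and 37 changed sign. Most members lie in the background range, which limits what any of these settings can show.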
